A study of Mus musculus with 12 samples.

Results

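Imprinted genes are described here in G1-phase mouse embryonic stem cells (ESCs) with and without P53, cultured in serum or in 2i. The members are 42 genes listed by symbol, which belong to 18 mouse imprinted domains. Of these, 41 occur among the 24881 gene symbols of the expression table, and 34 are among the 12572 genes with a mean of at least 0.5 FPKM, which were tested. FPKM, a count of fragments scaled to transcript length and sequencing depth, is the unit the authors deposited. Snurf has no line in the table, and the other 7 untested members, Igf2, Airn, Dlk1, Rtl1, Usp29, Zim1 and Magel2, lay under the minimum. By the allele each is known to be expressed from, 17 members are maternal and 24 paternal, and Gnas gives transcripts from both.

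Genomic imprinting is the expression of a gene from only the maternal or only the paternal copy. The copies are told apart by DNA methylation that is laid down at imprinting control regions in egg or sperm and copied at every cell division, and a control region often acts on several genes of a domain through a long noncoding RNA or an insulator. The zinc finger protein ZFP57 binds the hexamer TGCCGC when its CpG is methylated and protects the mark in the early embryo and in ESCs. Mouse ESCs grown in 2i, a serum-free medium with LIF and inhibitors of the kinases MEK and GSK3, are known for low DNA methylation, while ESCs in serum with LIF carry much more of it. DNA methylation was not measured in the libraries described here, and FPKM values do not separate the parental copies.

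The cells are R1 ESCs that carry the FUCCI reporters, fluorescent proteins that mark cell cycle phases, and every group was sorted for G1 phase. The 4 groups, each of 2 libraries, are WT and P53-/- ESCs in serum (WT serum, P53-/- serum) and in 2i (WT 2i, P53-/- 2i). The P53-/- cells are CRISPR-Cas9 clones of the same line, clones 1 and 2 by the study's text, and the table does not say which library came from which clone. The P53 effect below is the difference between P53-/- and WT libraries. In it, P53 loss cannot be told apart from other differences between these clones and the WT cells. Nothing in the labels says that the libraries of a group are separate cultures, so the p values measure only the spread between these libraries, which may be technical. Libraries are numbered by their order in the table. Depth, estimated from the steps between low values and known only up to a factor common to all libraries, ran from 5260000 to 13500000 fragments. Small RNA genes held 92.5% to 93.9% of summed FPKM in the 2i libraries and 97.2% to 99.1% in serum, and the part of this difference in the members' culture values was not tested. Trp53, the targeted gene, stood at 77.6 and 75.1 FPKM in serum and 26.8 and 33.7 in 2i for the WT libraries, and 16.8 and 3.68 in serum and 7.25 and 1.88 in 2i for the P53-/- libraries. Its P53-/- libraries lay below WT in both cultures, and the log2 fold change was -2.98 ± 0.74 in 2i (adjusted p = 0.0547) and -3.26 ± 0.74 in serum (adjusted p = 0.15, not called). Summed FPKM of 10 pluripotency markers lay between 3660 and 4580 in all groups, and that of 12 feeder fibroblast markers between 4.04 and 14.0. Of the latter, Thy1 was lower in 2i in both genotypes (log2 fold changes of -3.53 ± 0.42 and -4.01 ± 0.42), Twist1 and Pdgfrb were higher in WT 2i than in WT serum (1.33 ± 0.34 and 1.25 ± 0.39), and Twist1 was lower in P53-/- than in WT 2i (-1.24 ± 0.34, adjusted p = 0.0722). Of the pluripotency markers, 4 of 10 (40%) were called in the WT and 7 of 10 (70%) in the P53-/- culture comparison, beside 55.7% and 58.2% of all genes, among them Utf1 (log2 fold changes of -3.07 ± 0.19 and -3.21 ± 0.19), and Klf4 was lower in P53-/- than in WT 2i (-0.96 ± 0.13). Summed FPKM of 8 trophoblast markers was 12.7 to 17.1 in 2i and 2.15 to 5.65 in serum, most of it Krt18. Of these, Krt7 was higher in P53-/- than in WT 2i (2.14 ± 0.67, adjusted p = 0.0972), while Krt18 was not called (-0.34 ± 0.29). Summed FPKM of 8 mesoderm and primitive streak markers was 9.13 to 14.6 in 2i and 3.03 to 4.67 in serum. Of the mesoderm sum, Gsc gave 6.23 to 9.83 in 2i and at most 0.205 in serum, while Eomes was lower in P53-/- 2i than in P53-/- serum (log2 fold change -0.77 ± 0.31) and not called in WT (-0.52 ± 0.31). Summed FPKM of 7 neural markers, most of it Tubb3, was higher in 2i than in serum in WT (31.7 to 34.2 and 27.5 to 28.8) and lower in P53-/- ESCs (23.0 to 28.0 and 37.6 to 42.5). In WT, Tubb3 was not called (0.56 ± 0.15), while Nes (-0.74 ± 0.19) and Map2 (-2.43 ± 0.46) were lower in 2i. Tubb3 was lower in P53-/- than in WT 2i (-0.61 ± 0.15, adjusted p = 0.054). Summed FPKM of 9 primitive endoderm markers was 2.77 to 4.54 in WT 2i and 2.76 to 3.01 in WT serum, and 1.68 to 2.41 in P53-/- 2i and 1.28 to 1.5 in P53-/- serum. The part of these markers in the members' values was not tested. In such bulk libraries, fewer cells of a type and less RNA per cell cannot be told apart.

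Promoter sequences were searched for the imprint-reading hexamer. Windows of 250 bases before RefSeq starts were used (GRCm38.p6, not the mm9 build named in the submitters' processing notes). The search covered 34 of the 42 members, with 50 windows in all. It did not cover Cdkn1c, H19, Impact, Peg10, Peg13, Rtl1, Sgce and Trappc9, so the member counts below leave these out. TGCCGC or its reverse complement occurred in 8 windows (16%) of 7 members, Zdbf2, Plagl1, Meg3, Mcts2, Mest, Copg2 and Zim1, against 8.68% of all 32851 promoter windows. Some member windows overlap, among them both Mest windows with the hexamer, and after joining those that do, 7 of 46 regions (15.2%) held it. Member windows also held more CpG, with a median of 10 against 6 in all windows. The windows of Kcnq1ot1, Nnat, Rian, Phlda2, Snrpn and Ube3a, which were lower in 2i in both genotypes, held no hexamer. H19 and Peg10, also lower, had no window. Plagl1 and Copg2, which held the hexamer, were higher in 2i in both genotypes. A relation between the hexamer and expression was not tested. Zdbf2, a paternally expressed zinc finger gene shown for its large fall in 2i, has windows at 2 starts that lie 72.9 kb apart. The upstream one, chr1:63200108-63200357 (plus strand), held 3 hexamers, a number reached by 0.0731% of all windows, and the downstream one, chr1:63273019-63273268, held none. Mest (chr6:30737800-30738049, plus strand) held 2, and Meg3 (chr12:109540746-109540995, plus strand) held 1. In these 4 sequences, written 5′ to 3′ up to the base before the start, capitals mark the hexamer or its reverse complement.
Zdbf2 upstream: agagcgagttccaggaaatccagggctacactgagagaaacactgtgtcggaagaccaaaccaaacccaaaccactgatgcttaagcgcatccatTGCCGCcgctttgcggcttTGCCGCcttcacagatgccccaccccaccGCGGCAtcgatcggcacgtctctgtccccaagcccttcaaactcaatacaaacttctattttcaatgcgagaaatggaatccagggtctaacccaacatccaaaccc
Zdbf2 downstream: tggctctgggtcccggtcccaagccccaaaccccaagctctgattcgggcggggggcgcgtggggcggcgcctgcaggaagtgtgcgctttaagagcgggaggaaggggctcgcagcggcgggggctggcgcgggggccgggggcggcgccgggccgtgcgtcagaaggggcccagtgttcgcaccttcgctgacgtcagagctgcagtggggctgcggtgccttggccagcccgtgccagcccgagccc
Mest: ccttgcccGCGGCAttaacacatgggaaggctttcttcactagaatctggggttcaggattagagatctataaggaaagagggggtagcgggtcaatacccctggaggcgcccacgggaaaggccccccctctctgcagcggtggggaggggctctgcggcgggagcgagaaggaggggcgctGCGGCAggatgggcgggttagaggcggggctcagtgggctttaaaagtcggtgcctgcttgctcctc
Meg3: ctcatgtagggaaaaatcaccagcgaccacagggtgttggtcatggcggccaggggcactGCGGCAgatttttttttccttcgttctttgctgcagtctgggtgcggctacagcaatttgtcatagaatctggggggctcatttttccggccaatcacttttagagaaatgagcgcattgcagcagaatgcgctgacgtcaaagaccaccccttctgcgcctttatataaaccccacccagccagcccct

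The consensus half-site of P53 was searched in the same windows. It occurred in 3 of the 50 member windows (6%), those of Zrsr1, Magel2 and one of Igf2, and in 7.13% of all windows. Zrsr1, an intronless paternally expressed relative of a splicing factor gene, is shown because its level was lower in P53-/- 2i ESCs and its window (chr11:22971755-22972004, plus strand) held 2 such half-sites, in capitals below. These half-sites began 173 and 117 bases before the start and did not adjoin. In all windows, 0.259% held 2 or more, at any spacing. The windows of Cd81, Mest, Zdbf2 and Slc22a18, the other members lower in P53-/- 2i ESCs, held none. A match or its absence describes these letters only. The study mapped P53 binding by ChIP-seq in serum and 2i ESCs, and those data were not analysed here.
Zrsr1: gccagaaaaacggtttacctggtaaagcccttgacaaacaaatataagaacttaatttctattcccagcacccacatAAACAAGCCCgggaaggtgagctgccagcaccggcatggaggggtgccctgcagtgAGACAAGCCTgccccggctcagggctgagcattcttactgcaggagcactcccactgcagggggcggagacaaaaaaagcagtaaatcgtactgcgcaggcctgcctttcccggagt

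Members differed widely in level. Means over the 8 libraries were 10 FPKM or more for 17 members and between 1 and 10 FPKM for 15, and 33 members were above 0 in every library. Cd81, a tetraspanin membrane protein, had the highest mean with 111 FPKM, followed by the noncoding RNA Rian with 104 and the retrotransposon-derived Peg10 with 71.5. At the other end, the 7 untested members reached at most 0.682 FPKM in any library. Dlk1, a Notch-pathway ligand, stood at 0.383 and 0.507 FPKM in serum and 0.0605 and 0.0432 in 2i for the WT libraries, and 0.503 and 0.682 in serum and 0.0501 and 0.0446 in 2i for the P53-/- libraries. Igf2, the fetal growth factor, stood at 0.0407 and 0.295 FPKM in serum and 0 and 0.0519 in 2i for the WT libraries, and 0.223 and 0.222 in serum and 0.0842 and 0.046 in 2i for the P53-/- libraries. Both stayed below 1 FPKM in all libraries. Airn, the noncoding RNA that silences Igf2r in cis, was listed at 0 in 4 of the 8 libraries, and Rtl1, a retrotransposon-derived gene of placenta and muscle, in 6. The plot of all tested members by library shows these ranges.

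**Figure D1:**
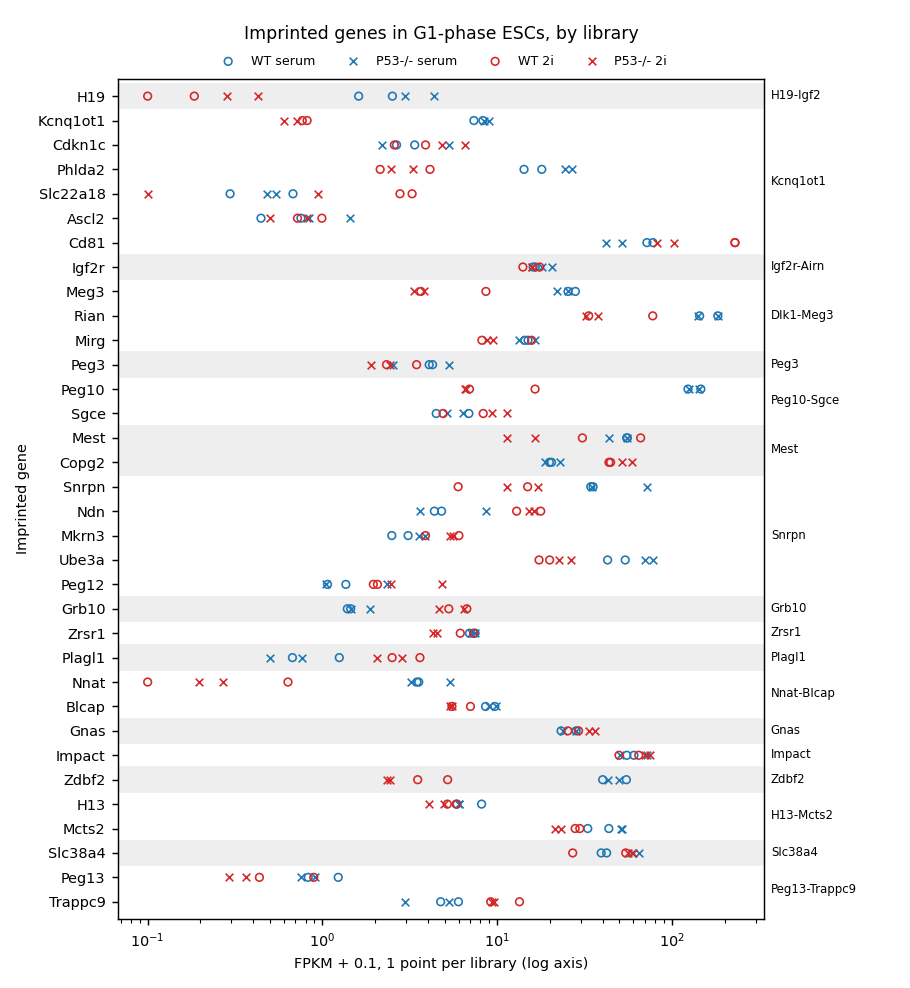
FPKM + 0.1 of the 34 tested imprinted genes in the 8 libraries (log axis, 1 point per library), grouped by imprinted domain, whose names stand at the right. Blue marks serum and red 2i, circles WT and crosses P53-/-; for Zdbf2, Peg10 and Kcnq1ot1 all red points lie left of all blue points, and for Grb10 and Copg2 to the right.

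Culture was compared within each genotype, with limma on log2(FPKM + 0.1), and a call required a fold change over 1.5 together with an adjusted p under 0.1. In WT ESCs, 18 of the 34 members were called, 8 higher in 2i and 10 lower. That is 23.5% higher and 29.4% lower, beside 27.2% and 28.6% of all genes tested, so imprinted genes were called about as often as other genes. In P53-/- ESCs, 24 members were called, 8 higher (23.5%) and 16 lower (47.1%), beside 28% and 30.1% of all genes. The median log2 fold change of the members was -0.20 in WT and -0.73 in P53-/- ESCs, and that of all genes -0.02 and -0.03. The 2i and serum libraries did not overlap for 23 members in WT (67.6%, beside 81.7% of all genes) and 30 in P53-/- ESCs (88.2%, beside 81.8%), all called members among them. The WT and P53-/- comparisons share no library, and 16 members were called in the same direction in both, 88.9% of the WT calls and 66.7% of the P53-/- calls. Of all genes, 5808 were, 82.9% and 79.4% of the calls, so 47.1% of the members stand beside 46.2% of all genes tested. The plot of both culture effects shows these members side by side.

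**Figure D2:**
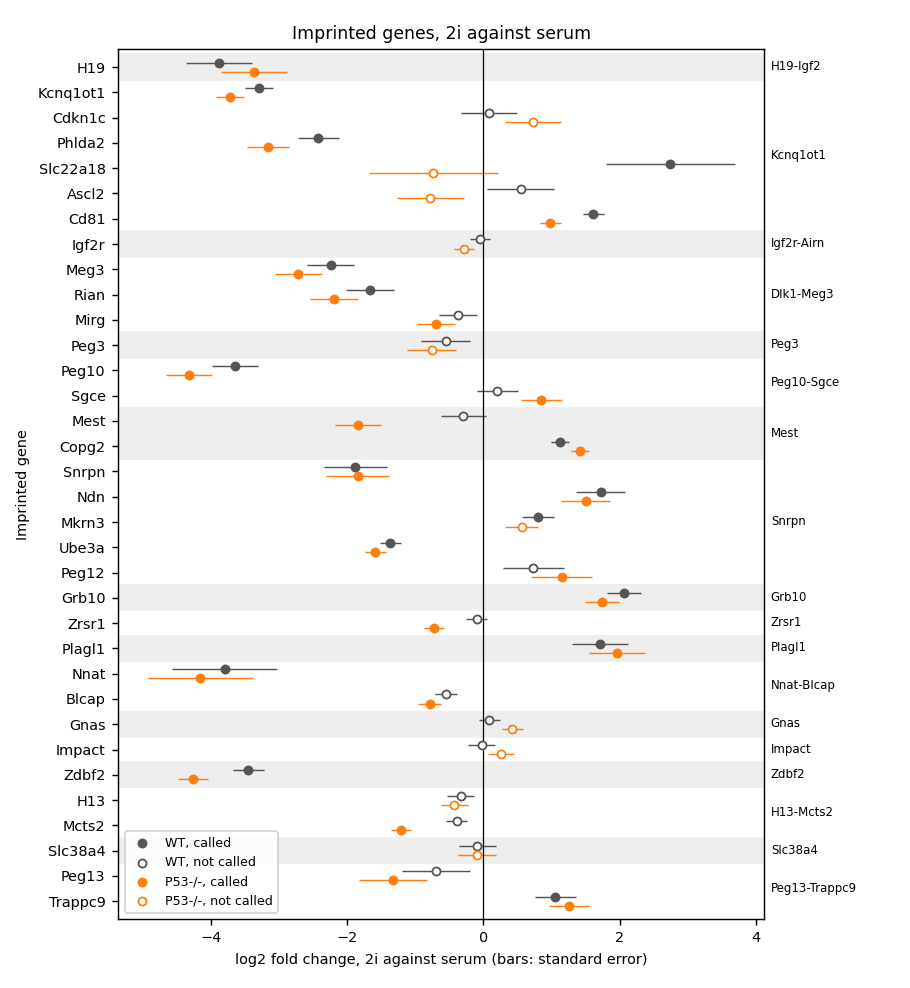
Log2 fold change of 2i against serum for the 34 tested imprinted genes, grouped by domain, in WT (grey) and P53-/- ESCs (orange), with bars for the standard error and filled points for called genes. 10 members are filled at the left in both genotypes and 6 at the right.

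Noncoding RNAs were among the members with the largest falls in 2i. Kcnq1ot1, the paternal RNA that silences its neighbours on distal chromosome 7 in cis, stood at 7.25 and 8.18 FPKM in serum and 0.667 and 0.717 in 2i for the WT libraries, and 8.29 and 8.82 in serum and 0.503 and 0.613 in 2i for the P53-/- libraries. The highest 2i value, 0.717, was far below the lowest serum value, 7.25, and the log2 fold change was -3.30 ± 0.21 in WT (SE, adjusted p = 2.92e-05) and -3.72 ± 0.21 in P53-/- ESCs (adjusted p = 1.88e-05), or -2.36 and -2.62 with a pseudocount of 1. H19, the maternal RNA of the Igf2 domain, stood at 2.41 and 1.51 FPKM in serum and 0 and 0.0848 in 2i for the WT libraries, and 2.85 and 4.26 in serum and 0.183 and 0.325 in 2i for the P53-/- libraries. It was low in serum and lower in 2i in both genotypes. The fitted log2 fold change of H19, -3.89 ± 0.49 in WT (adjusted p = 0.000381) and -3.37 ± 0.49 in P53-/- ESCs (adjusted p = 0.000657), depends on the pseudocount and ran in WT from -1.49 with a pseudocount of 1 to -5.96 with 0.01, and in P53-/- ESCs from -1.85 to -3.78. Peg13, the paternal RNA inside Trappc9, reached at most 1.13 FPKM in any library, was not called in WT (-0.70 ± 0.50, adjusted p = 0.255) and was lower in P53-/- 2i (-1.33 ± 0.50, adjusted p = 0.0464). That call was lost with a pseudocount of 1 (-0.49), without P53-/- 2i library 1 (-1.17) and without P53-/- serum library 1 (-1.20), and without WT 2i library 2 Peg13 was called lower in WT (-1.21).

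Of the maternal RNAs of the Dlk1-Meg3 domain, Meg3 and Rian fell in 2i in both genotypes, and Mirg was called in P53-/- ESCs. Meg3 stood at 27.9 and 25.3 FPKM in serum and 3.55 and 8.51 in 2i for the WT libraries, and 21.8 and 25.2 in serum and 3.71 and 3.24 in 2i for the P53-/- libraries. Rian, which hosts small nucleolar RNAs, stood at 144 and 182 FPKM in serum and 33.2 and 77.4 in 2i for the WT libraries, and 140.0 and 182 in serum and 37.4 and 32.1 in 2i for the P53-/- libraries. Mirg, which hosts microRNAs at the far end of the domain, stood at 14.3 and 14.9 FPKM in serum and 8.06 and 15.6 in 2i for the WT libraries, and 13.2 and 16.4 in serum and 9.39 and 8.61 in 2i for the P53-/- libraries. All 2i libraries of Meg3 and Rian lay below all serum libraries, while 1 WT 2i library of Mirg lay among the serum values. Log2 fold changes in WT were -2.25 ± 0.34 for Meg3 (adjusted p = 0.000959), -1.67 ± 0.35 for Rian (adjusted p = 0.00448) and -0.37 ± 0.28 for Mirg (adjusted p = 0.276, not called). In P53-/- ESCs they were -2.72 (adjusted p = 0.000343), -2.20 (adjusted p = 0.0011) and -0.70 (adjusted p = 0.0575, called). WT 2i library 2 held more of all 3 RNAs than WT 2i library 1. Without WT 2i library 1 the WT values were -1.63 for Meg3 and -1.06 for Rian, and without library 2 they were -2.87 and -2.28, with both called each time, and Mirg was called only without library 2 (-0.85). The P53-/- call of Mirg was lost without either P53-/- 2i library (-0.76 and -0.64), without P53-/- serum library 2 (-0.55), under quantile normalization (-0.59) and with chromosome medians centred (-0.37).

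Paternally expressed protein-coding genes gave further large falls. Zdbf2 stood at 40.0 and 54.7 FPKM in serum and 3.40 and 5.10 in 2i for the WT libraries, and 49.4 and 42.6 in serum and 2.25 and 2.33 in 2i for the P53-/- libraries. Peg10, a domesticated retrotransposon gene needed for placenta formation, stood at 123 and 146 FPKM in serum and 16.3 and 6.83 in 2i for the WT libraries, and 125 and 142 in serum and 6.56 and 6.44 in 2i for the P53-/- libraries. No 2i library of either gene came near a serum library. The log2 fold change of Zdbf2 was -3.46 ± 0.22 in WT (adjusted p = 3.17e-05) and -4.27 ± 0.22 in P53-/- ESCs (adjusted p = 1.57e-05). For Peg10 the log2 fold changes were -3.65 ± 0.34 (adjusted p = 0.000104) and -4.33 ± 0.34 (adjusted p = 4.88e-05), and the WT value was -4.28 without WT 2i library 1 and -3.03 without library 2. Sgce, the sarcoglycan gene that starts beside Peg10 and shares its control region, was not lower in 2i, with a log2 fold change of 0.20 ± 0.30 in WT (adjusted p = 0.585, not called) and 0.85 ± 0.30 in P53-/- ESCs (adjusted p = 0.0383, higher), a call lost without P53-/- 2i library 2 (0.71) or P53-/- serum library 2 (0.70). Nnat, a membrane proteolipid gene inside an intron of Blcap, stood at 3.37 and 3.45 FPKM in serum and 0 and 0.535 in 2i for the WT libraries, and 3.10 and 5.24 in serum and 0.0964 and 0.171 in 2i for the P53-/- libraries. It was low in 2i, with -3.80 ± 0.77 in WT (adjusted p = 0.00376) and -4.16 ± 0.77 in P53-/- ESCs (adjusted p = 0.00224), and the WT value ran from -1.83 to -5.54 with pseudocounts of 1 and 0.01 (P53-/- -2.16 to -4.87), and from -2.47 without WT 2i library 1 to -5.13 without library 2. Blcap, on the opposite strand, had values of -0.55 ± 0.17 in WT (adjusted p = 0.0223, under the fold threshold) and -0.79 ± 0.17 in P53-/- ESCs (adjusted p = 0.00417, called). In WT, Blcap was called without WT 2i library 2 (-0.73) and without WT serum library 2 (-0.64).

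The Kcnq1ot1 domain held members that moved in opposite directions. Phlda2, which restrains growth of the placenta, stood at 14.1 and 17.9 FPKM in serum and 2.04 and 4.02 in 2i for the WT libraries, and 24.3 and 26.5 in serum and 3.18 and 2.36 in 2i for the P53-/- libraries. Cd81 stood at 71.7 and 77.6 FPKM in serum and 228 and 229 in 2i for the WT libraries, and 41.8 and 51.6 in serum and 82.3 and 102 in 2i for the P53-/- libraries. Slc22a18, an organic cation transporter gene, stood at 0.578 and 0.196 FPKM in serum and 3.16 and 2.68 in 2i for the WT libraries, and 0.445 and 0.381 in serum and 0.844 and 0 in 2i for the P53-/- libraries. Phlda2 fell in 2i in both genotypes (-2.43 ± 0.31 and -3.17 ± 0.31, adjusted p = 0.000381 and 0.000103), as Kcnq1ot1 itself did, whereas Cd81 rose in both (1.62 ± 0.15 and 0.98 ± 0.15, adjusted p = 0.000109 and 0.00093). Slc22a18 was called higher in WT 2i (2.75 ± 0.95, adjusted p = 0.0371) and not in P53-/- 2i (-0.74 ± 0.95, adjusted p = 0.524). At such low levels its WT call was lost with a pseudocount of 0.01 (3.07), without WT 2i library 1 (2.63) or 2 (2.86) and without WT serum library 2 (2.15), and the value was 3.34 without WT serum library 1 and 1.51, still called, with a pseudocount of 1. Cdkn1c, which codes for the cell cycle inhibitor P57, and Ascl2, a transcription factor of trophoblast, were not called in either genotype, with values of 0.08 ± 0.41 and 0.73 ± 0.41 for Cdkn1c and 0.55 ± 0.49 and -0.78 ± 0.49 for Ascl2. In P53-/- ESCs, Cdkn1c was called higher without P53-/- serum library 2 (1.36) and Slc22a18 lower without P53-/- 2i library 1 (-2.35). For Slc22a18, P53-/- 2i library 1 (0.844 FPKM) lay above both P53-/- serum libraries, so the sign depends on which 2i library is kept.

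In the Snrpn domain, the region of the Prader-Willi and Angelman syndromes, members likewise moved both ways. Snrpn, a spliceosome protein gene, stood at 35.2 and 34.1 FPKM in serum and 14.8 and 5.87 in 2i for the WT libraries, and 34.8 and 71.7 in serum and 16.9 and 11.3 in 2i for the P53-/- libraries. Ube3a, a ubiquitin ligase gene imprinted in neurons, stood at 42.7 and 53.8 FPKM in serum and 17.2 and 19.8 in 2i for the WT libraries, and 70.0 and 77.1 in serum and 22.4 and 26.5 in 2i for the P53-/- libraries. Ndn, a MAGE family gene, stood at 4.70 and 4.27 FPKM in serum and 12.8 and 17.6 in 2i for the WT libraries, and 3.50 and 8.47 in serum and 15.1 and 16.1 in 2i for the P53-/- libraries. Snrpn and Ube3a were lower and Ndn higher in every 2i library than in any serum library of the same genotype. Their log2 fold changes in WT were -1.88 ± 0.46 for Snrpn (adjusted p = 0.00904), -1.37 ± 0.16 for Ube3a (adjusted p = 0.000261) and 1.72 ± 0.36 for Ndn (adjusted p = 0.00435), and in P53-/- ESCs -1.85, -1.59 and 1.5 (adjusted p = 0.00933, 0.000117 and 0.00784). Without WT 2i library 1 the WT value of Snrpn was -2.54 and without library 2 -1.22, and the P53-/- value of Ndn was 0.87 without P53-/- serum library 1 and 2.13 without library 2. Mkrn3, another ubiquitin ligase gene, was called higher in WT 2i (0.80 ± 0.24, adjusted p = 0.0205), a call lost without WT 2i library 2 (0.48) or WT serum library 2 (0.65), and stood at 0.56 ± 0.24 in P53-/- ESCs (adjusted p = 0.072), under the fold threshold. Peg12, of the FRAT family that binds GSK3, was not called in WT (0.74 ± 0.45, adjusted p = 0.189) and was called higher in P53-/- 2i (1.15 ± 0.45, adjusted p = 0.0544). The Peg12 call was lost without P53-/- 2i library 2 (0.66), without P53-/- serum library 1 (0.57) and in a fit of only the groups compared (adjusted p = 0.135).

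Outside these domains, 4 members rose in 2i in both genotypes. Grb10, an adaptor that damps insulin and IGF1 receptor signalling, stood at 1.35 and 1.29 FPKM in serum and 5.18 and 6.59 in 2i for the WT libraries, and 1.35 and 1.76 in serum and 4.56 and 6.37 in 2i for the P53-/- libraries. Plagl1, a zinc finger transcription factor gene, stood at 0.573 and 1.15 FPKM in serum and 3.51 and 2.40 in 2i for the WT libraries, and 0.4 and 0.667 in serum and 2.74 and 1.95 in 2i for the P53-/- libraries. Copg2, which codes for a coat protein of Golgi vesicles, stood at 19.8 and 20.3 FPKM in serum and 44.4 and 43.4 in 2i for the WT libraries, and 22.7 and 18.7 in serum and 59.1 and 51.8 in 2i for the P53-/- libraries. The 2i libraries lay above the serum libraries for each of them in both genotypes. Log2 fold changes in WT and P53-/- ESCs were 2.07 ± 0.25 and 1.74 ± 0.25 for Grb10 (adjusted p = 0.0003 and 0.000594), 1.71 ± 0.41 and 1.96 ± 0.41 for Plagl1 (adjusted p = 0.00792 and 0.00395) and 1.13 ± 0.13 and 1.42 ± 0.13 for Copg2 (adjusted p = 0.000289 and 9.00e-05). With a pseudocount of 1 the Plagl1 values were 1.09 and 1.12. The remaining one, Trappc9, a subunit of a vesicle tethering complex, rose by 1.06 ± 0.30 (adjusted p = 0.0167) and 1.26 ± 0.30 (adjusted p = 0.00745), and its WT call was lost without WT 2i library 1 (0.78) or WT serum library 1 (0.89). Copg2 and Trappc9 overlap the members Mest and Peg13, Airn overlaps Igf2r on the opposite strand, Nnat overlaps Blcap, Mcts2 overlaps H13, and Kcnq1ot1 lies antisense within Kcnq1. The libraries were stranded, but the strand setting of the counting is not given in the sources used here, so the values within such pairs are uncertain.

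The other members changed little or in 1 genotype. Mest, a gene of mesoderm that codes for a protein of the hydrolase family, stood at 55.4 and 54.9 FPKM in serum and 66.0 and 30.6 in 2i for the WT libraries, and 43.3 and 54.9 in serum and 11.3 and 16.2 in 2i for the P53-/- libraries. Its 2i level was not called different from serum in WT (-0.29 ± 0.34, adjusted p = 0.475) and was lower in P53-/- ESCs (-1.84 ± 0.34, adjusted p = 0.00211). The WT 2i libraries of Mest differed more than 2-fold, and without WT 2i library 1 Mest was called lower in WT as well (-0.85). Zrsr1 and Mcts2, an intronless copy of a translation factor gene inside H13, were likewise called lower in P53-/- 2i, with -0.73 ± 0.15 (adjusted p = 0.00419) and -1.21 ± 0.15 (adjusted p = 0.000302), beside -0.10 ± 0.15 and -0.40 ± 0.15 in WT. Mcts2 was called in WT without WT serum library 1 (-0.60). Igf2r, the receptor that clears IGF2, kept between 13.9 and 20.3 FPKM in all libraries. Impact, a regulator of translation under amino acid stress, and Gnas, the stimulatory G protein subunit, were called in neither genotype. Slc38a4, an amino acid transporter gene, H13, a signal peptide peptidase gene, and Peg3, a zinc finger gene, were not called in either genotype. Leaving out 1 library changed 2 of these, with Slc38a4 called lower in WT without WT 2i library 2 (-0.59) and Peg3 lower in P53-/- ESCs without P53-/- serum library 1 (-1.29).

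By parental allele, 5 of 16 tested maternal members were higher (31.2%) and 5 lower (31.2%) in WT 2i, and of 17 paternal members 3 were higher (17.6%) and 5 lower (29.4%), beside 27.2% and 28.6% of all genes. In P53-/- ESCs the counts were 4 higher (25%) and 7 lower (43.8%) maternal, and 4 higher (23.5%) and 9 lower (52.9%) paternal, beside 28% and 30.1% of all genes. The difference between the alleles was not tested. Members are grouped by their known allele, which for some, such as Ube3a and Cd81, is known from other tissues. The alleles expressed in these ESCs were not measured. Of the 8 domains with at least 2 tested members, 2 (Kcnq1ot1 and Snrpn) held members called in opposite directions in WT, and 5 did in P53-/- ESCs (Kcnq1ot1, Snrpn, Peg10-Sgce, Mest and Peg13-Trappc9).

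P53-/- and WT ESCs were then compared in each culture. In 2i, 5 of the 34 members were called, all lower in P53-/- ESCs (14.7%), and none was called higher, beside 5.97% lower and 4.36% higher of all genes tested. At an unadjusted p under 0.05 there were 9 members (26.5%), beside 25.2% of all genes, and the libraries did not overlap for 19 (55.9%), beside 53.6%. The median log2 fold change of the members was -0.21, against 0.02 for all genes. The 5 members lie in 4 domains. These comparisons use the same 2i libraries as the culture comparisons above, and a member low in P53-/- 2i enters both.

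**Figure D3:**
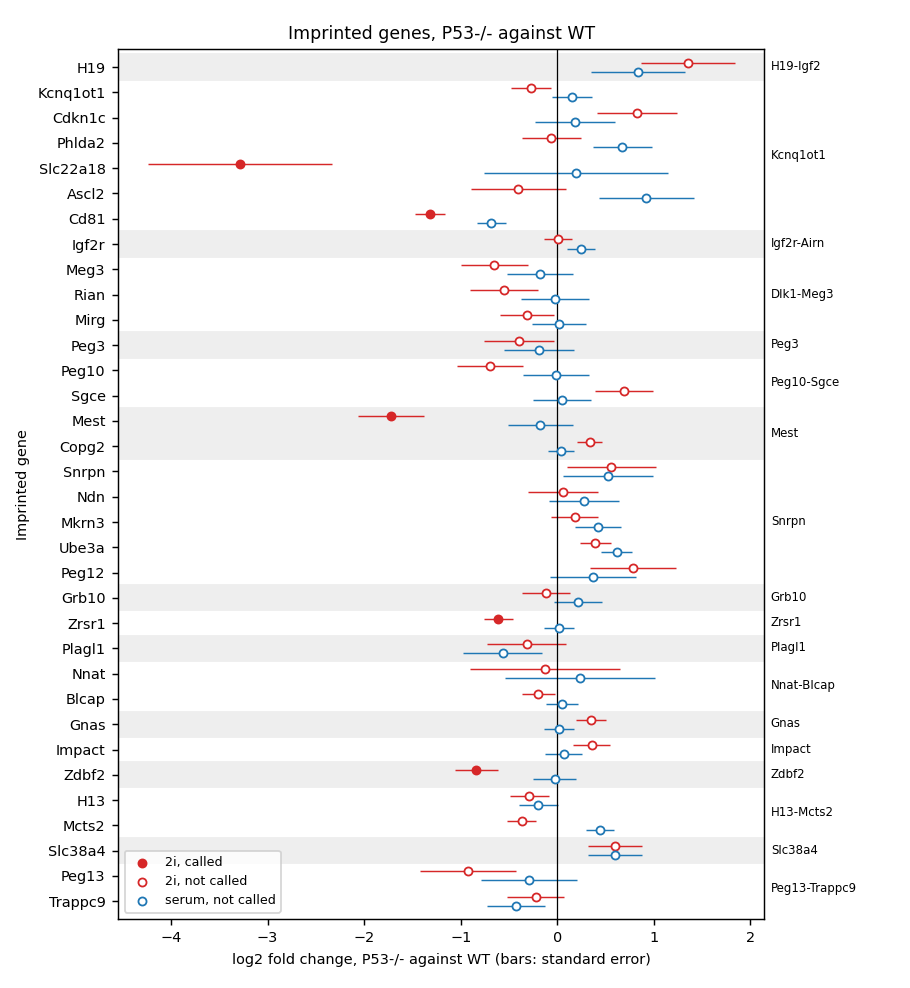
Log2 fold change of P53-/- against WT for the 34 tested imprinted genes, grouped by domain, in 2i (red) and in serum (blue), with bars for the standard error and filled points for called genes. The 5 filled points, all in 2i, are Slc22a18, Cd81, Mest, Zrsr1 and Zdbf2, and all lie left of 0.

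Cd81, a tetraspanin that is known as imprinted in placenta, had 82.3 and 102 FPKM in P53-/- 2i, well below the 228 and 229 FPKM of WT 2i. The log2 fold change was -1.32 ± 0.15 (adjusted p = 0.00418), and Cd81 alone kept its call under all 15 alternatives, with values between -1.47 and -1.16. Mest had 11.3 and 16.2 FPKM in P53-/- 2i, beside 66.0 and 30.6 FPKM in WT 2i (-1.72 ± 0.34, adjusted p = 0.0278), and the groups did not overlap although the WT libraries lay far apart. Its call was lost without P53-/- 2i library 1 (-1.46, adjusted p = 0.131) and in a fit of only the groups compared (adjusted p = 0.18). Zdbf2, already low in WT 2i, was lower in P53-/- 2i (-0.84 ± 0.22, adjusted p = 0.0666). Zrsr1 had 4.17 and 4.41 FPKM in P53-/- 2i, below the 6.04 and 7.21 FPKM of WT 2i, which were close to the 6.83 and 7.36 of WT serum (-0.61 ± 0.15, adjusted p = 0.0578). Both calls were lost without P53-/- 2i library 1 (-0.81 for Zdbf2 and -0.57 for Zrsr1), without P53-/- 2i library 2 (-0.86 and -0.65) and without WT 2i library 2 (-0.55 and -0.48), and in a fit of only the groups compared (adjusted p = 0.231 and 0.22). That of Zdbf2 was also lost with eBayes without trend (adjusted p = 0.115), and that of Zrsr1 with a pseudocount of 1 (-0.52) and with chromosome medians centred (-0.49). Slc22a18, with 0.844 and 0 FPKM in P53-/- 2i against 3.16 and 2.68 FPKM in WT 2i, gave -3.29 ± 0.95 (adjusted p = 0.0809). The Slc22a18 value was -4.91 without P53-/- 2i library 1 and -1.53, still called, with a pseudocount of 1, and its call was lost without P53-/- 2i library 2 (-1.67), WT 2i library 1 (-3.18) or WT 2i library 2 (-3.41) and with a pseudocount of 0.01 (-4.98). It was also lost with all genes above 0 in any library (adjusted p = 0.112), with eBayes without trend (adjusted p = 0.123) and in a fit of only the groups compared (adjusted p = 0.242).

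**Figure D4:**
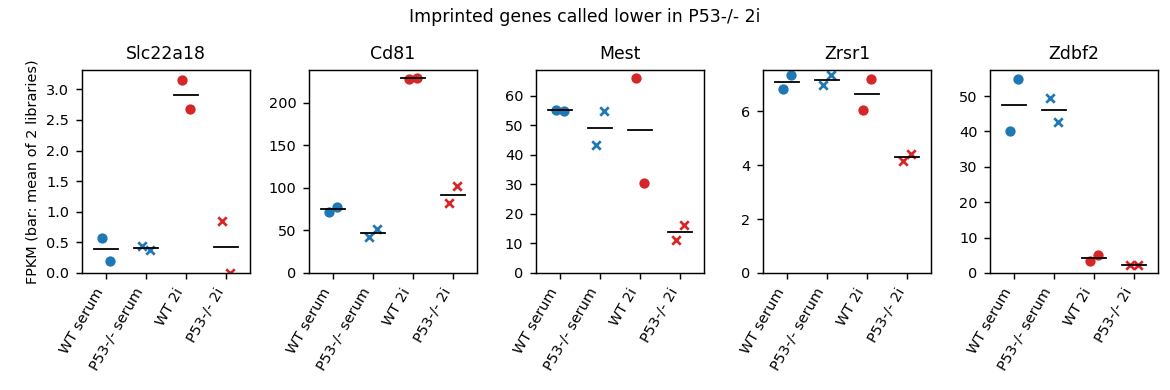
FPKM of the 5 imprinted genes called lower in P53-/- 2i than in WT 2i, 1 panel per gene with its own axis from 0, in the 2 libraries of each group (blue serum, red 2i, circles WT, crosses P53-/-), with a bar at the mean. In each panel both red crosses lie below both red circles, and for Zdbf2 all red points lie near the bottom.

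Members not called in this comparison included several whose call turned on a WT 2i library. Without WT 2i library 1, Meg3 (-1.27), Rian (-1.16) and Mirg (-0.79) were called lower in P53-/- 2i, which with Cd81, Mest, Zdbf2 and Zrsr1 made 7 calls. Without WT 2i library 2, Peg10 was called lower (-1.32), and Slc38a4 (1.10) and H19 (1.80) higher. With all libraries, their log2 fold changes were -0.65 ± 0.34 for Meg3, -0.55 ± 0.35 for Rian, -0.32 ± 0.28 for Mirg, -0.69 ± 0.34 for Peg10, 0.59 ± 0.28 for Slc38a4 and 1.35 ± 0.49 for H19, with adjusted p values from 0.136 to 0.526.

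In serum, no member was called between P53-/- and WT ESCs by limma, beside 1.02% of all genes tested. At an unadjusted p under 0.05 there were 3 members (8.82%), beside 11.3% of all genes, and the libraries did not overlap for 12 (35.3%), beside 47.5%. Cd81 had 41.8 and 51.6 FPKM in P53-/- serum against 71.7 and 77.6 FPKM in WT serum, without overlap (-0.68 ± 0.15, unadjusted p = 0.00218, adjusted p = 0.142). It was called when small RNA genes were left out (adjusted p = 0.0936) and with chromosome medians centred (-0.78, adjusted p = 0.0587). Ube3a (0.62 ± 0.16, adjusted p = 0.203) and Mcts2 (0.44 ± 0.15, adjusted p = 0.318) were the other two. Zdbf2, Mest and Zrsr1, lower in P53-/- 2i, had values of -0.03 ± 0.22, -0.18 ± 0.34 and 0.02 ± 0.15 in serum.

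Whether the P53 effect differed between the cultures was tested by the interaction. No member was called by limma, beside 0.207% of all genes tested, and 6 members (17.6%, beside 13.1% of all genes) had an unadjusted p under 0.05: Mcts2, Mest, Cd81, Zrsr1, Slc22a18 and Zdbf2, all with a more negative P53 effect in 2i. Their values ran from -0.63 ± 0.22 for Zrsr1 to -3.48 ± 1.35 for Slc22a18, and the lowest adjusted p was 0.2, for Mcts2. A different P53 effect in 2i and serum was thus not shown for any member, nor a different culture effect in WT and P53-/- ESCs, which is the same contrast.

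Spread between libraries of 1 group was large for some members. In WT 2i, 8 of the 34 members (23.5%) differed more than 2-fold between the libraries, beside 6.43% of all genes tested. Meg3, Rian, Nnat, Slc38a4 and Peg13 were higher in library 2, and Peg10, Mest and Snrpn in library 1. In P53-/- serum, 5 members (14.7%, beside 5.07% of all genes) differed that much, namely Cdkn1c, Peg3, Snrpn, Ndn and Peg12, all higher in library 2. In P53-/- 2i and WT serum, 1 member did in each (2.94%, beside 4.56% and 4.34%), Slc22a18 both times. Dnmt3l, the cofactor of de novo DNA methylation, differed between the WT 2i libraries too, with 20.2 FPKM in library 1 and 2.99 in library 2. The DNA methyltransferase genes did not follow it, with 1.55 and 1.59 for Dnmt3a, 6.90 and 9.27 for Dnmt3b and 38.8 and 42.8 for Dnmt1. Estimated depth was 8030000 and 5260000 fragments for the WT 2i libraries and 12100000 and 9660000 for P53-/- serum, on the same relative scale, and its part in these differences was not tested.

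**Figure D5:**
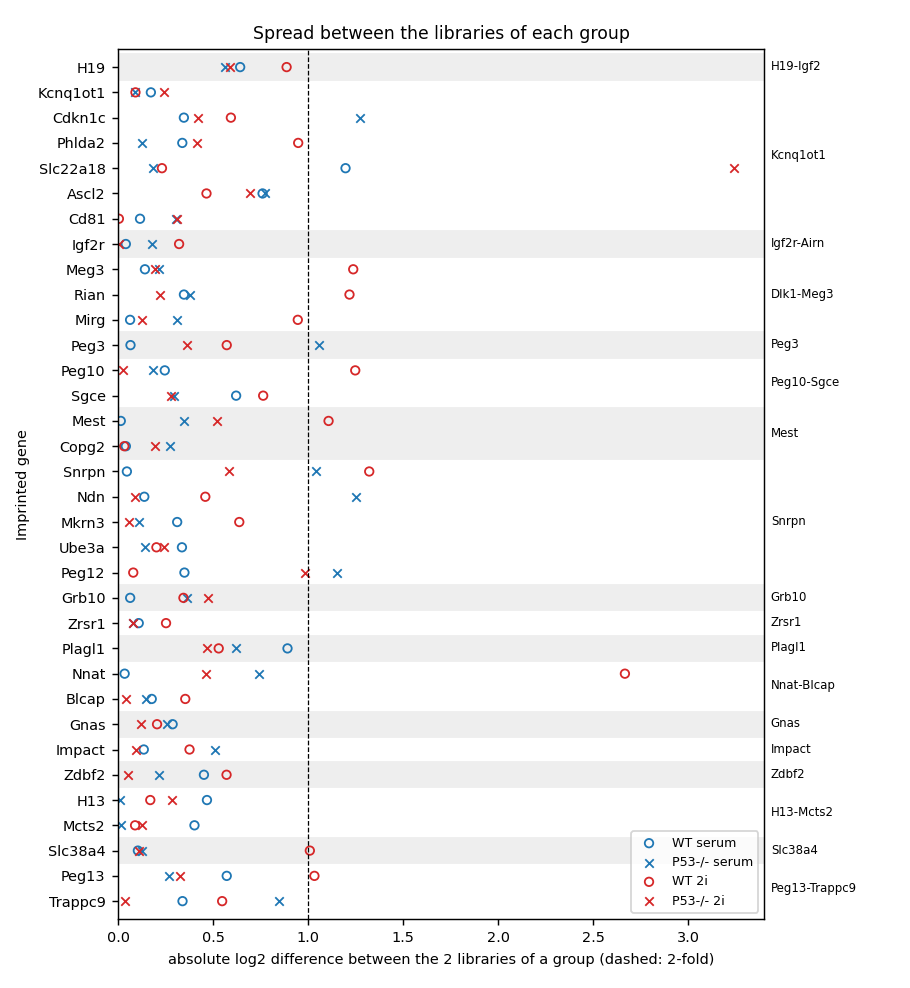
Absolute log2 difference between the 2 libraries of a group, on log2(FPKM + 0.1), for the 34 tested imprinted genes, grouped by domain (blue serum, red 2i, circles WT, crosses P53-/-). The dashed line marks a 2-fold difference, and 8 red circles (WT 2i), 5 blue crosses (P53-/- serum), 1 blue circle and 1 red cross lie beyond it.

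A further list of 40 imprinted genes that are not members served as a comparison, and 19 of them were tested. In WT 2i, 4 of these were higher (21.1%) and 6 lower (31.6%), beside 27.2% and 28.6% of all genes, and in P53-/- 2i, 6 higher (31.6%) and 6 lower (31.6%), beside 28% and 30.1%. Dio3, which inactivates thyroid hormone at the end of the Dlk1-Meg3 domain, rose in both genotypes (2.56 ± 0.49 and 2.90 ± 0.49, adjusted p = 0.00288 and 0.00143) while Meg3 and Rian fell. The WT 2i libraries of Dio3 lay far apart, at 2.48 and 7.38 FPKM, against 0.585 and 0.71 in WT serum. Nespas, the antisense RNA of the Gnas domain, fell in both (-1.70 ± 0.19 and -1.65 ± 0.19, adjusted p = 0.000251 and 0.00024) while Gnas was not called. Ppp1r9a, next to Peg10 and Sgce, fell in both (-2.37 ± 0.20 and -2.79 ± 0.20). In P53-/- 2i against WT 2i, 1 of the 19 was called (5.26%, beside 5.97% of all genes called lower), Ddc, with -0.60 ± 0.14 (adjusted p = 0.0451), and in serum none by limma, with 3 (15.8%, beside 11.3% of all genes) at an unadjusted p under 0.05.

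Genes that write, keep or remove DNA methylation and imprints were counted beside the members. Of 20 listed, 19 were tested. In WT 2i, 11 were lower (57.9%, beside 28.6% of all genes), among them the methyltransferases Dnmt3a (-3.07 ± 0.16) and Dnmt3b (-1.91 ± 0.17), the oxidase Tet1 (-2.60 ± 0.17) and the imprint-protecting zinc finger gene Zfp445 (-1.51 ± 0.16), and 1, Dppa3, was higher (5.26%, beside 27.2%). P53-/- 2i against serum gave 11 lower (57.9%, beside 30.1%) and 2 higher (10.5%, beside 28%). Zfp57 stood at 131 and 109 FPKM in serum and 119 and 95.4 in 2i for the WT libraries, and 115 and 107 in serum and 55.5 and 61.7 in 2i for the P53-/- libraries. It was lower in P53-/- than in WT 2i (-0.87 ± 0.15, adjusted p = 0.0204). Dppa3, which protects maternal methylation in the zygote, stood at 1.44 and 3.66 FPKM in serum and 28.1 and 31.5 in 2i for the WT libraries, and 3.54 and 4.07 in serum and 397 and 446 in 2i for the P53-/- libraries, and was higher in P53-/- 2i than in WT 2i (3.82 ± 0.35, adjusted p = 0.00158). Tet2 was lower there (-0.92 ± 0.20, adjusted p = 0.0381), and in serum Dnmt3a was higher in P53-/- ESCs (0.92 ± 0.16, adjusted p = 0.0641). The part of these genes in the members' values was not tested.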

How the data were processed

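RNA-seq was described for 8 libraries of G1-sorted ESCs, 4 groups of 2. The authors deposited FPKM values, with libraries in columns and gene symbols in rows, from stranded, ribosomal RNA-depleted libraries of total RNA. The submitters' processing notes name STAR, Cufflinks and mm9, and their settings are not given in the sources used here. Columns were grouped by the genotype and culture in their names, and all were mapped. P21-/- libraries and the WT 2i libraries made for them were not analysed here.

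The 12572 genes whose FPKM averaged 0.5 or more were fitted on log2(FPKM + 0.1) with limma 3.58.1 in R 4.3.3, with 1 fit of 4 groups, eBayes with trend and Benjamini-Hochberg adjustment over all genes. Calls required a fold change over 1.5 together with an adjusted p under 0.1. Fold changes on this scale understate those of low genes. FPKM values hold no counts, so no count model and no counting interval could be had, and depth was estimated from low values up to a common factor. Alternatives were 11 settings of pseudocount, filter, scaling, fit and threshold, and each library left out in turn, in which case the lone library was assumed to vary like the other groups. The members and gene lists were chosen with earlier results of these data known. All tested members are named. Positions, overlaps and transcript lengths came from GENCODE M21, promoters from RefSeq, matched by symbol. Tables were handled in Python 3.11.15 (pandas 2.3.3, numpy 2.4.6), and figures drawn with matplotlib 3.10.9.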

Additional observations from a re-analysis of the deposited data

How the results depend on the processing

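No called member reversed its direction under any alternative tried. In WT culture, 15 of 18 called members kept their call in every alternative, in P53-/- culture 20 of 24, and in P53-/- against WT in 2i 1 of 5. The last comparison gave 5 members in the fit reported, 3 with eBayes without trend, 1 in a fit of only the groups compared, 2 at an adjusted p under 0.05, and from 2 to 7 with 1 library left out. In serum it gave 0, and 1 (Cd81) without small RNA genes and 1 (Cd81) with chromosome medians centred. Mirg and Peg12 lost their calls in P53-/- culture at an adjusted p under 0.05. The causes were not tested. Members not called in the report were called under other settings as follows: with chromosome medians centred, Peg3 (-0.70) and Mest (-0.62) in WT culture, Peg3 (-0.76) and Impact (0.80) in P53-/- culture and H19 (1.40) in P53-/- against WT in 2i; under quantile normalization, Peg13 (-1.17) in WT and Peg3 (-0.81) in P53-/- culture; with median-ratio scaling, Mkrn3 (0.61) in P53-/- culture; in a fit of only the groups compared, Peg12 (0.74) in WT culture; with all genes above 0 in any library, Dlk1, not tested in the report, in WT (-1.84) and P53-/- culture (-2.22); and with a filter at a mean FPKM of 1 or without small RNA genes, Peg3 (-0.76 both times) in P53-/- culture. No scaling moved the median of all genes by 0.1 on the log2 scale. No paired analysis was possible because the columns carry no replicate numbers. Depth limits H19, Nnat, Slc22a18, Peg13, Ascl2 and Plagl1, the tested members with a level under 0.5 FPKM in at least 1 library.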
